A study of Caenorhabditis elegans with 12 samples.

Results

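The genes described here are 9 immune effectors of the worm Caenorhabditis elegans that are known as targets of the p38 MAP kinase PMK-1: F08G5.6 (irg-4), C32H11.1 (irg-6), K08D8.5, C17H12.8, dod-22 (F55G11.5), dod-24 (C32H11.12), T24B8.5 (sysm-1), clec-265 (M02F4.7) and catp-3 (C09H5.2). They were found by gene symbol or sequence name in a table of 30301 genes, all 9 were present, and all 9 passed the filter on low values that left 15529 genes for testing. The 4 groups of 3 libraries were dlk-1 mutants with 1 mM fluvastatin, dlk-1 mutants with 0 mM, wild-type worms with 1 mM fluvastatin and wild-type worms with 0 mM. Fluvastatin is a statin, an inhibitor of HMG-CoA reductase. All groups were whole worms fed OP-50 bacteria, grown on several plates per condition, moved at the last larval stage (L4) to plates with or without the drug and collected after 9 h. The titles call the mutant a p38 knockout whereas the protocols call it a dlk-1 mutant, without an allele. Whether replicates were separate cultures is not stated, so the p-values cover the spread among these libraries, which may not be that between cultures.

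In C. elegans the TIR-1, NSY-1, SEK-1 and PMK-1 proteins form a kinase cascade that acts in the intestine and, through the transcription factor ATF-7, turns on secreted antimicrobial and other effector genes when pathogens are met. DLK-1 heads another cascade, in which MKK-4 activates a different p38 kinase, PMK-3, and which is best known for axon regeneration and synapse formation in neurons. By the protocols the mutated gene thus belongs to the DLK-1 cascade, and all members are known as targets of the other one. Of the 9 effectors, F08G5.6, C32H11.1, K08D8.5, C17H12.8, dod-22 and dod-24 encode proteins with a CUB-like domain, T24B8.5 encodes a small protein with a ShK toxin domain that is widely used as a reporter of PMK-1 activity, clec-265 encodes a C-type lectin domain protein, and catp-3 encodes a cation-transporting P-type ATPase.

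In WBcel235 coordinates, 6 of the 9 genes lie on chromosome IV. C17H12.8 lies at 6818703 to 6820575 (plus strand) and F08G5.6 at 12435833 to 12438236 (plus strand). The other 4 lie close together: K08D8.5 at 12910647 to 12912129 (minus strand), C32H11.1 at 12912722 to 12914969 (minus strand), dod-24 at 12940106 to 12941354 (minus strand) and dod-22 at 12965374 to 12967392 (plus strand). T24B8.5 lies on chromosome II at 9082626 to 9083193 (minus strand), catp-3 on chromosome V at 8076012 to 8079916 (plus strand) and clec-265 on chromosome X at 3031783 to 3033117 (plus strand). All 9 are protein-coding genes. C17H12.8 overlaps the piRNA locus 21ur-13425 on its own strand, and no other member overlaps an annotated gene. No other gene came within 5% of a member's value in all libraries.

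Reads summed over all genes of the table were 9370975 to 12438131 per library. Counting error was not compared with the spread between replicates. Values are the deposited normalised reads (reads divided by 1 size factor per library). dlk-1 itself had 792, 706 and 804 normalised reads in mutants with fluvastatin, against 1419, 983 and 1345 in wild type with fluvastatin, and 481, 541 and 506 in mutants without it, against 961, 791 and 911 in wild type without it. It was detected in all mutant libraries at a lower level, by a log2 of -0.69 with fluvastatin and -0.80 without it, past the threshold in limma with a replicate block (adjusted p = 0.0218 and 0.011) but not without it. Replicate numbers differed in every group, and which number stood apart depended on the genes. Replicate 1 stood apart in 6 epidermis markers, with sums of 3471 to 3786 normalised reads, against 576 to 1832 in replicates 2 and 3. It also stood apart in 6 oocyte markers, with 30893 to 34954 against 42432 to 47316. Replicate 2 stood apart in sperm genes. The summed normalised reads of 35 major sperm protein genes were 11711 to 12544 in the replicate 2 libraries, whereas replicate 1 and 3 libraries held 28634 to 42873. Libraries of the same replicate number deviated together from their group means, and each member is therefore given with the fit without a block and, where the block changes the call, with the fit that has the replicate number as a block.

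The sum of the 9 effectors rested on a pair of genes in fluvastatin-treated worms. The members together held 5928 to 8037 normalised reads in mutants with fluvastatin, against 2146 to 3155 in mutants without it, and 5371 to 8154 in wild type with fluvastatin, against 1279 to 2015 in wild type without it. F08G5.6 and C32H11.1 made up 59.6 to 67.8% of that sum in mutants with fluvastatin, against 10.5 to 21.2% in mutants without it, and 63.4 to 70.8% in wild type with fluvastatin, against 12.2 to 20.02% in wild type without it. In whole animals, more cells that express a gene and more RNA per cell cannot be told apart. The library values in the plot of all 9 genes show a large separation of fluvastatin from control for F08G5.6 and C32H11.1, lower values with fluvastatin for dod-24 and T24B8.5, overlap without a common direction for dod-22, and smaller differences towards higher values for the rest.

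**Figure D1:**
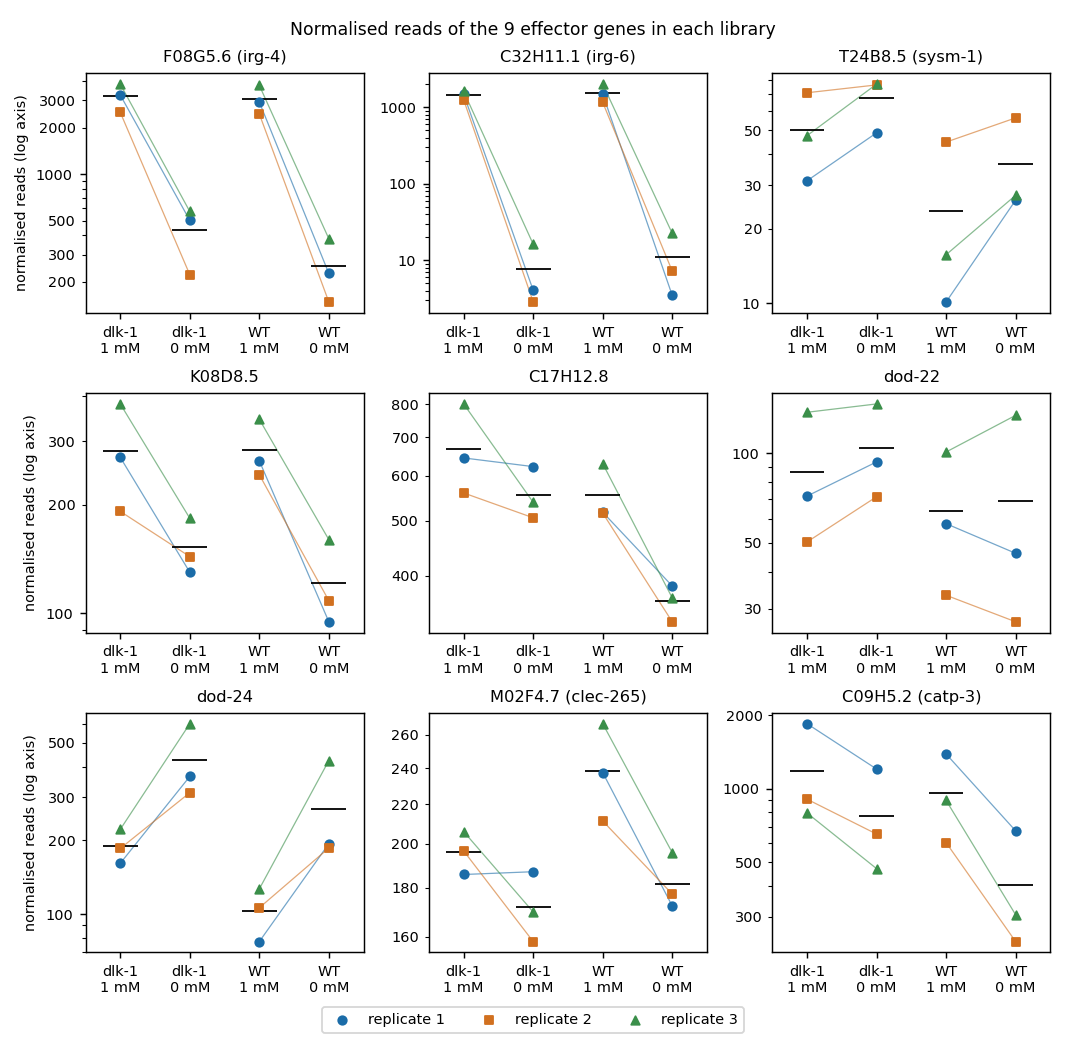
Normalised reads (log axis) of each effector in the 12 libraries, with dlk-1 mutants left of wild type (WT) and 1 mM fluvastatin left of 0 mM in each genotype. Points are libraries, coloured lines join libraries of the same replicate number and black bars are group means. C32H11.1 libraries lie at 1165 to 2020 with fluvastatin and at 2.86 to 22.5 without it.

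C32H11.1 and F08G5.6, both infection response genes with a CUB-like domain, rose in both genotypes. C32H11.1 had 1486, 1260 and 1620 normalised reads in mutants with fluvastatin, against 4.07, 2.86 and 16.3 in mutants without it. Wild-type libraries had 1493, 1165 and 2020 normalised reads with fluvastatin, against 3.48, 7.23 and 22.5 without it. Every treated library lay far above every untreated one, and the untreated values rested on 3 to 19 reads per library. The log2 difference was 7.70 ± 0.63 in the mutant (SE, n = 3 per group, adjusted p = 9.93e-05), and the ratio of the group means was 188. In wild type it was 7.32 ± 0.63 (adjusted p = 0.000118), and the ratio was 141. Among all 15529 tested genes these were the 2nd largest rise in the mutant and the 5th largest in wild type.

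F08G5.6 had the higher untreated level of the pair. It stood at 3252, 2508 and 3825 normalised reads in mutants with fluvastatin, against 501, 223 and 572 in mutants without it. In wild type it stood at 2927, 2451 and 3753 with fluvastatin, against 227, 148 and 381 without it. Treated and untreated libraries did not overlap in either genotype. The log2 difference was 2.97 ± 0.40 in the mutant (adjusted p = 0.00318) and 3.67 ± 0.40 in wild type (adjusted p = 0.0006), with ratios of the group means of 7.40 and 12.1. The treated levels of the mutant and of wild type differed by less than the spread between replicates, while the untreated level was higher in the mutant in all 3 replicate pairs. The order of the group means was mutant with fluvastatin, wild type with fluvastatin, mutant control and wild-type control, and within each dose the neighbouring groups overlapped. Calls were lost when a replicate number was left out, at log2 differences of similar size. Without replicate 1 F08G5.6 differed by 3.11 in the mutant (adjusted p = 0.270) and by 3.67 in wild type (adjusted p = 0.144), and C32H11.1 by 6.78 in wild type (adjusted p = 0.0534). Without replicate 3 F08G5.6 differed by 3.09 in the mutant (adjusted p = 0.102). Without replicate 2, the set of libraries low in sperm genes, the number of members called stayed at 2 in each genotype. Without replicate 1 it was 1 in the mutant and 0 in wild type. Calls over all 15529 tested genes also fell without replicate 1, from 214 to 48 in the mutant and from 282 to 59 in wild type. They were 43 and 47 without replicate 3, but 213 and 255 without replicate 2.

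K08D8.5, the CUB-like gene that neighbours C32H11.1, was higher with fluvastatin in both genotypes and passed the threshold with the replicate block but not without it in limma. It had 271, 192 and 381 normalised reads in mutants with fluvastatin, against 130, 144 and 184 in mutants without it. Wild-type libraries had 265.01, 243 and 346 with fluvastatin, against 94.8, 109 and 160 without it. The groups did not overlap in either genotype. Its log2 difference was 0.84 ± 0.28 in the mutant (adjusted p = 0.404, with the block 0.000871) and 1.24 ± 0.28 in wild type (adjusted p = 0.0590, with the block 1.96e-05). In wild type it also passed without a block in DESeq2 (adjusted p = 0.00223) and in limma with the filter on low values raised to 50 (adjusted p = 0.0485). With fluvastatin the genotypes overlapped, and so they did without it.

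C17H12.8, another CUB-like gene, passed in limma with the block in wild type and not in the mutant, and the difference between the genotypes did not pass. It had 644, 559 and 802 normalised reads in mutants with fluvastatin, against 622, 506 and 538 in mutants without it, and these groups overlapped. Wild-type worms had 517, 515 and 629 with fluvastatin, against 384, 332 and 366 without it, and these did not overlap. On the log2 scale the difference was 0.26 ± 0.15 in the mutant (adjusted p = 1.0, with the block 0.171) and 0.62 ± 0.15 in wild type (adjusted p = 0.0799, with the block 0.00086). C17H12.8 also passed in wild type without a block in DESeq2 (adjusted p = 0.00448). The mean of untreated mutants, 555 ± 60.0 (SD, n = 3), was close to that of treated wild type, 554 ± 65.4, and the untreated wild type alone lay below all other groups.

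catp-3, the P-type ATPase gene, had its highest value in replicate 1 in all 4 groups. It had 1844, 906 and 795 normalised reads in mutants with fluvastatin, against 1203, 652 and 471 in mutants without it. Wild-type worms had 1387, 602 and 895 with fluvastatin, against 672, 237 and 305 without it. The groups overlapped in both genotypes, but each treated library exceeded the untreated library of its own number. Its log2 difference was 0.61 ± 0.50 in the mutant (adjusted p = 1.0, with the block 0.116) and 1.31 ± 0.50 in wild type (adjusted p = 0.538, with the block 0.00307). Mutant means stood above wild-type means at the same dose, with overlap at both doses.

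clec-265, the C-type lectin gene, had a narrow spread and a small difference. It had 186, 197 and 206 normalised reads in mutants with fluvastatin, against 187, 158 and 170 in mutants without it. Wild-type libraries had 237, 211 and 267 with fluvastatin, against 172, 177 and 196 without it. Treated wild-type libraries lay above the untreated ones and also above all mutant libraries. The log2 difference was 0.19 ± 0.13 in the mutant (adjusted p = 1.0) and 0.39 ± 0.13 in wild type (adjusted p = 0.354, with the block 0.0292).

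dod-24, named as a gene downstream of the insulin-pathway factor DAF-16, was lower with fluvastatin in both genotypes, opposite to the other CUB-like genes above. It had 161, 185 and 222 normalised reads in mutants with fluvastatin, against 365, 313 and 599 in mutants without it. Wild-type values were 77.3, 106 and 127 with fluvastatin, against 194, 186 and 424 without it. Treated and untreated groups did not overlap in either genotype. The log2 difference was -1.12 ± 0.35 in the mutant (adjusted p = 0.316, with the block 0.00111) and -1.28 ± 0.35 in wild type (adjusted p = 0.152, with the block 0.000303). The group means ran from mutant control through wild-type control and treated mutant to treated wild type. The untreated genotypes overlapped, wild-type control and treated mutant overlapped, and treated wild type lay below every other library.

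T24B8.5, the ShK-domain gene used as a PMK-1 reporter, was a low-abundance gene here and did not pass in either fit. It had 31.2, 70.8 and 47.5 normalised reads in mutants with fluvastatin, against 48.8, 76.2 and 76.7 in mutants without it. Wild-type values were 10.1, 44.8 and 15.7 with fluvastatin, against 26.1, 56.1 and 27.3 without it. The groups overlapped, and each treated library lay below the untreated library of its own number in both genotypes. On the log2 scale the difference was -0.47 ± 0.53 in the mutant (adjusted p = 1.0, with the block 0.404) and -0.79 ± 0.53 in wild type (adjusted p = 1.0, with the block 0.102).

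dod-22, also CUB-like and named for DAF-16, showed no common direction. It had 71.8, 50.3 and 137 normalised reads in mutants with fluvastatin, against 93.5, 71.4 and 146 in mutants without it. Wild-type values were 58.0, 33.3 and 101 with fluvastatin, against 46.1, 27.1 and 134 without it. All 4 groups overlapped, with replicate 3 highest and replicate 2 lowest in each. On the log2 scale the difference was -0.32 ± 0.61 in the mutant (adjusted p = 1.0, with the block 0.459) and 0.07 ± 0.61 in wild type (adjusted p = 1.0, with the block 0.903).

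**Figure D2:**
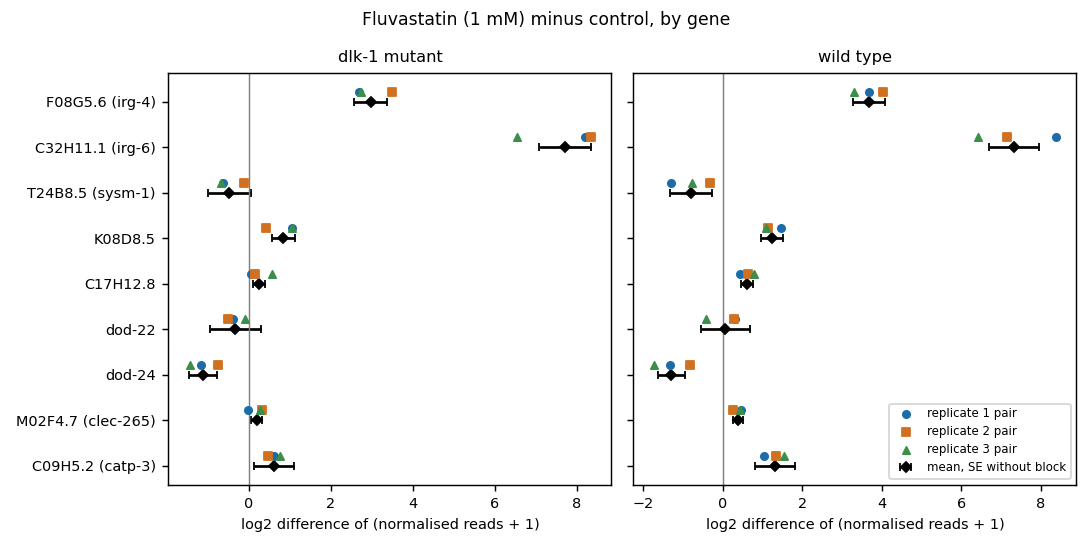
Log2 difference of fluvastatin minus control for each effector, in the dlk-1 mutant (left) and in wild type (right). Coloured points are the differences within each replicate number, and black diamonds with bars are the means and their standard errors from the fit without a block. C32H11.1 lies at 7.70 and 7.32 and F08G5.6 at 2.97 and 3.67, while dod-24 lies at -1.12 and -1.28.

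Counted over the 9 effectors, fluvastatin raised 2 and lowered 0 in the mutant, where 1.13% of all tested genes rose and 0.251% fell. In wild type it also raised 2 and lowered 0, where 1.39% of tested genes rose and 0.425% fell. With the replicate block 3 effectors rose (F08G5.6, C32H11.1 and K08D8.5) and 1 fell (dod-24) in the mutant, where 3.22% of tested genes rose and 3.09% fell. In wild type 6 rose and 1 fell with the block, where 3.77% of tested genes rose and 3.25% fell. T24B8.5 and dod-22 were the effectors that did not pass with the block in wild type. DESeq2 on the recovered reads, without a block, called 4 higher and 1 lower in wild type, with 1.96% of tested genes higher and 0.856% lower.

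Treated libraries lay above untreated ones without overlap for 3 effectors and below for 1 in the mutant, where 3.87% and 4.06% of tested genes did so. In wild type they lay above for 5 and below for 1, where 4.6% and 4.37% of tested genes did so. The median log2 difference of the 9 effectors was 0.26 in the mutant, where the median of all tested genes was 0.01, and 0.62 in wild type, where that median was also 0.01. Without the block, 4 effectors in the mutant and 7 in wild type had an unadjusted p under 0.05, where 5.69% and 5.83% of tested genes had one in either direction. In the block fit 6 and 8 effectors had one, where 17.1% and 17.8% of tested genes did.

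The size of the fluvastatin effect was then compared between genotypes, mutant minus wild type. This asks whether the size differs, whereas a rise within the mutant is the separate comparison given above. No effector passed in limma, edgeR or DESeq2, and 0 had an unadjusted p under 0.05 in limma without a block. Of all tested genes 0% passed either without or with the block. The difference was negative for 6 of 9 effectors, where it was negative for 53.1% of all tested genes. The median log2 was -0.36 for the effectors and -0.01 over all tested genes. A negative value means a smaller rise, a larger fall or, as for dod-22, a change of direction in the mutant. dod-22 was at 0.07 in wild type and -0.32 in the mutant. F08G5.6 had a difference of -0.70 ± 0.56 (SE), catp-3 of -0.70 ± 0.70, K08D8.5 of -0.40 ± 0.39 and C17H12.8 of -0.36 ± 0.21. In each of these 4 the difference was negative in 3 of 3 replicate numbers, a count that was not made over all tested genes. Each also had an unadjusted p with the block under 0.05, as in 2.49% of all tested genes in either direction and 1.07% with a negative difference. The adjusted p was 1.0 in both fits. C32H11.1 had a difference of 0.38 ± 0.90 and dod-24 of 0.17 ± 0.49. With standard errors of this size the missing calls do not show that the genotypes respond alike.

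Without fluvastatin, 7 of the 9 effectors were higher in the dlk-1 mutant than in wild type in 3 of 3 replicate pairs, where 14.8% of tested genes were. None passed without the block, where 0% of tested genes passed, and edgeR and DESeq2 also called 0, while 1 effector and 0.805% of tested genes had an unadjusted p under 0.05. In the block fit 7 effectors, 0 of them lower in the mutant, had an unadjusted p under 0.05. Of all tested genes 7.41% had one, in either direction. With the block 1 effector rose, C17H12.8, where 0.0515% of tested genes rose. Its 622, 506 and 538 normalised reads in untreated mutants lay wholly above 384, 332 and 366 in untreated wild type (log2 difference 0.62 ± 0.15, adjusted p = 1.0, with the block 0.0260). It was the only effector whose untreated genotypes did not overlap, as seen for 1.13% of tested genes in the higher and 1.79% in the lower direction.

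The other 6 with 3 higher pairs had overlapping groups and did not pass in either fit. Their log2 differences were 0.97 ± 0.50 for catp-3, 0.92 ± 0.53 for T24B8.5, 0.83 ± 0.61 for dod-22, 0.77 ± 0.40 for F08G5.6, 0.72 ± 0.35 for dod-24 and 0.35 ± 0.28 for K08D8.5. With the block the lowest adjusted p among these was 0.268, for catp-3. C32H11.1 was at -0.45 ± 0.63 and clec-265 at -0.08 ± 0.13. The median over the effectors was 0.72, where that over all tested genes was 0.02. The comparison shares its wild-type control libraries with the fluvastatin comparison in wild type, so the 2 sets of values are not independent.

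With fluvastatin, 5 of 9 effectors were higher in the mutant than in wild type in 3 of 3 replicate pairs, where 16.6% of tested genes were. The 3 effectors that rose in both genotypes with the block differed by less than the spread between replicates. F08G5.6 differed by a log2 of 0.07 ± 0.40, C32H11.1 by -0.07 ± 0.63 and K08D8.5 by -0.05 ± 0.28. The 5 effectors higher in 3 of 3 pairs were F08G5.6, C17H12.8 and the 3 members without a rise on fluvastatin in any fit. C17H12.8 differed by 0.26 ± 0.15 (with the block adjusted p = 0.474). catp-3, higher in 2 of 3 pairs, differed by 0.28 ± 0.50. T24B8.5 differed by 1.24 ± 0.53 (with the block adjusted p = 0.0687), dod-24 by 0.88 ± 0.35 (with the block 0.0599) and dod-22 by 0.44 ± 0.61 (with the block 0.603). dod-24 had 161, 185 and 222 normalised reads in treated mutants, against 77.3, 106 and 127 in treated wild type, with no overlap.

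clec-265 went the other way, with 186, 197 and 206 normalised reads in treated mutants, against 237, 211 and 267 in treated wild type (log2 difference -0.28 ± 0.13, with the block adjusted p = 0.447). No effector passed in either fit, where 0% of tested genes passed without the block and 0.27% with it, in either direction. Non-overlapping groups were seen for 1 effector above, dod-24, and 1 below, clec-265, where 1.54% of tested genes lay above and 3% below. Without the block, edgeR and DESeq2 also called 0, and 2 effectors and 1.46% of tested genes had an unadjusted p under 0.05. In the block fit 5 effectors, 1 of them lower in the mutant, and 7.94% of tested genes had one.

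**Figure D3:**
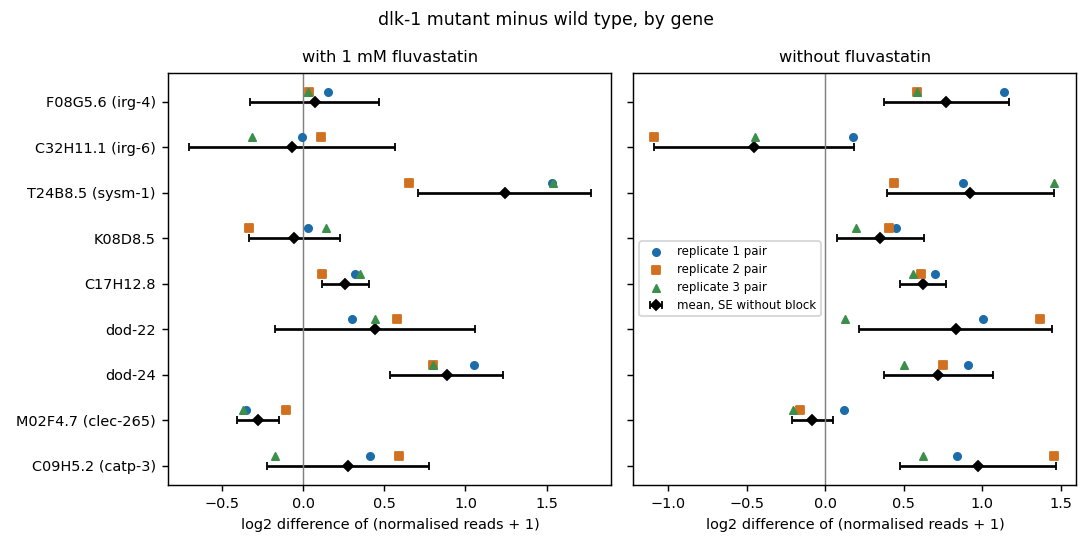
Log2 difference of dlk-1 mutant minus wild type for each effector, with 1 mM fluvastatin (left) and without it (right). Coloured points are differences within each replicate number, and black diamonds with bars are means and standard errors from the fit without a block. Without fluvastatin 7 of 9 effectors lie above 0 in all 3 pairs, and with it T24B8.5 and dod-24 lie highest, at 1.24 and 0.88.

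Per kilobase of transcript, the order of the effectors differed between doses. In untreated wild type C17H12.8 was the most abundant, with a mean of 328 normalised reads per kb, followed by dod-24 with 232 and F08G5.6 with 229, and C32H11.1 was the least abundant with 6.81. In treated wild type F08G5.6 led with 2762 per kb and C32H11.1 followed with 957, while T24B8.5 and dod-22 were lowest with 50.1 and 51.1. In the mutant C32H11.1 likewise was lowest untreated, at 4.75 per kb, and 2nd when treated, at 893 per kb. C17H12.8 was again highest untreated, at 506 per kb.

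Along chromosome IV, K08D8.5, C32H11.1, dod-24 and dod-22 lie within 56.746 kb, and F08G5.6 lies 472.41 kb away. C32H11.1 and K08D8.5 lie on the same strand with 592 bases between them. Over this stretch the members did not move as a block, as the plot along the stretch shows: in limma C32H11.1 rose with and without the block, K08D8.5 rose and dod-24 fell with the block and not without it, and dod-22 passed in neither. DESeq2 without a block called K08D8.5 and dod-24 in wild type as well (adjusted p = 0.00223 and 0.0149). The stretch has 23 genes in the table, and 17 were tested. Of the 13 tested genes that are no members, 3 rose and 0 fell in each genotype (srz-15, C32H11.9 and dod-21), and with the block 4 rose, with C32H11.4 added. The median log2 difference of these 13 was -0.00 in the mutant and -0.05 in wild type. Of all tested genes 1.13% rose in the mutant and 1.39% in wild type, and with the block 3.22% and 3.77%.

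srz-15, a chemoreceptor-family gene next to C32H11.1 on the opposite strand, had 17.7, 14.9 and 19.0 normalised reads in mutants with fluvastatin, against 0, 0 and 1.16 in mutants without it. In wild type it had 16.6, 9.37 and 16.8 with fluvastatin, against 0 in all 3 libraries without it. dod-21 had 39.7, 34.5 and 51.8 normalised reads in mutants with fluvastatin, against 3.05, 11.4 and 3.49 in mutants without it. In wild type it had 53.4, 45.8 and 77.4 with fluvastatin, against 1.74, 5.43 and 3.56 without it. C32H11.9 had nearly the same values in every library, 41.4, 33.5 and 52.8 against 3.05, 10.5 and 3.49 in the mutant, so reads may be shared between them and both are uncertain.

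**Figure D4:**
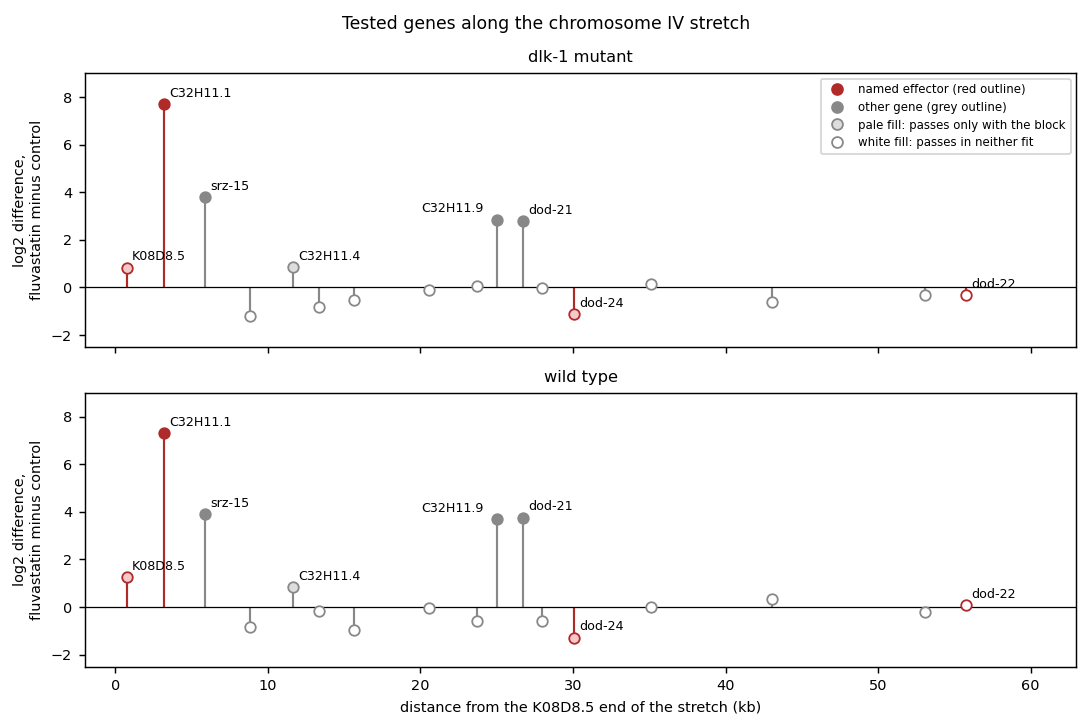
Log2 difference of fluvastatin minus control for the 17 tested genes along the chromosome IV stretch, by distance in kb from its K08D8.5 end, in the dlk-1 mutant (top) and wild type (bottom). Red marks effectors and grey other genes, and fill marks a limma adjusted p under 0.05 without a block (solid), with the block only (pale) or in neither fit (white). C32H11.1 lies at 7.70 and 7.32 and dod-24 at -1.12 and -1.28.

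Genes on the same cosmids as the members, 46 of them tested, held 6 that rose and 0 that fell in each genotype, with a background of 1.13% and 1.39% of tested genes for rises. With the block 9 rose and 3 fell in the mutant, where 3.22% and 3.09% of tested genes did. In wild type 10 rose and 1 fell with it, where 3.77% and 3.25% of tested genes did. Beside srz-15, C32H11.9 and dod-21, these were K08D8.6 (log2 difference 1.67 in the mutant and 1.78 in wild type), K08D8.4 (0.98 and 1.24) and F55G11.2 (2.83 and 2.91). K08D8.6 and K08D8.4 share the cosmid of K08D8.5, and F55G11.2 that of dod-22. C32H11.9 and dod-21, which may share reads, are both counted here and in the stretch, so these counts may hold the same signal more than once. C32H11.9, C32H11.4 and K08D8.4 fall outside the naming rule and were chosen after their values were seen.

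The genes of the PMK-1 cascade itself were measured beside its targets. Of 10 tested, 1 rose in the mutant and 2 in wild type, none fell, and none differed between genotypes in either fit. Of all tested genes 1.13% rose in the mutant and 1.39% in wild type. vhp-1, a phosphatase that dampens MAP kinases, averaged 2515 ± 127 normalised reads in mutants with fluvastatin, against 1761 ± 54.9 without it, and 2172 ± 169 in wild type with fluvastatin, against 1557 ± 200 without it (SD, n = 3 each). Its log2 difference was 0.51 ± 0.10 (adjusted p = 0.0360) in the mutant and 0.48 ± 0.10 (adjusted p = 0.0401) in wild type. nipi-3, a Tribbles-family pseudokinase gene with a role in immunity, averaged 907 ± 94.2 normalised reads in mutants with fluvastatin, against 542 ± 102 without it, and 924 ± 67.5 in wild type with fluvastatin, against 539 ± 90.8 without it. Its log2 difference was 0.75 ± 0.16 in the mutant (adjusted p = 0.0545, with the block 0.000154) and 0.79 ± 0.16 in wild type (adjusted p = 0.0358).

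The genes pmk-1, sek-1 and nsy-1 had small differences. tir-1 differed about as much as vhp-1, but with a larger SE (0.26 in each genotype). pmk-1 averaged 222 ± 44.8 normalised reads in mutants with fluvastatin, against 226 ± 37.8 without it, and 234 ± 37.97 in wild type with fluvastatin, against 223 ± 42.4 without it. The log2 differences of fluvastatin minus control were -0.03 in the mutant and 0.07 in wild type for pmk-1, 0.04 and 0.04 for sek-1, 0.04 and -0.02 for nsy-1, and 0.49 and 0.50 for tir-1, none past the threshold in either fit. atf-7, the transcription factor of the pathway, was at 0.06 in the mutant and 0.11 in wild type. These are transcript levels, and phosphorylation of PMK-1 was not measured.

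Another 10 PMK-1 effectors, from a list of genes that are no members, also moved in both directions. In the mutant 1 rose and 0 fell, where 1.13% of tested genes rose and 0.251% fell. With the block 5 rose and 2 fell there, where 3.22% of tested genes rose and 3.09% fell. In wild type 3 rose and 1 fell, where 1.39% of tested genes rose and 0.425% fell. With the block 5 rose and 2 fell there, where 3.77% of tested genes rose and 3.25% fell. clec-85, a C-type lectin gene, rose in both genotypes, by a log2 of 0.78 ± 0.10 in the mutant (adjusted p = 0.00282) and 0.86 ± 0.10 in wild type (adjusted p = 0.00118). F35E12.5 (irg-5), a CUB-like effector, rose in wild type by 3.87 ± 0.52 (adjusted p = 0.00244) and differed by 1.88 ± 0.52 in the mutant (adjusted p = 0.194, with the block 0.00325). It was also the list's 1 gene higher in the mutant than in wild type without fluvastatin with the block, by 2.49 ± 0.52 (adjusted p = 1.0 without and 0.0252 with the block), the same call as C17H12.8. lys-2, a lysozyme gene, rose in wild type by 0.95 ± 0.13 (adjusted p = 0.00278) and differed by 0.60 ± 0.13 in the mutant (adjusted p = 0.0606, with the block 0.000181).

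Tissue markers were set beside these values, since the effectors are known for expression in the intestine. Of all tested genes 0.251% fell in the mutant and 0.425% in wild type, and with the block 3.09% and 3.25%. None of 10 intestine markers passed without the block, and with it 4 fell in each genotype and 0 rose. Their summed normalised reads were 32216 to 39234 in mutants with fluvastatin, against 33354 to 49130 without it, and 30069 to 38975 in wild type with fluvastatin, against 34246 to 48755 without it, and none of the 10 was at 0. The part of these markers in the effectors' values was not tested. Of the other markers, 6 of muscle and pharynx, 5 of neurons, 6 of oocytes and 6 of epidermis, and 35 major sperm protein genes, 0 passed in any comparison of dose or genotype in either fit. Of 124 cuticle collagen genes 0 rose and 1 fell in each genotype with fluvastatin, and with the block 25 fell in the mutant and 32 in wild type, whose part in the effectors' values was not tested.

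With the block 3.22% of tested genes rose and 3.09% fell in the mutant, and 3.77% rose and 3.25% fell in wild type. Without it 1.13% rose in the mutant and 1.39% in wild type. Of 10 regulators of intestinal genes, 0 passed without the block, and 2 rose with it in each genotype. The 4 tested genes of an infection response that does not need PMK-1 gave 0 calls without the block; with it 0 rose and 1 fell in the mutant, and 2 rose and 2 fell in wild type. Of 7 other dod genes 1 rose in each genotype, dod-21, and with the block 1 rose and 1 fell in the mutant and 2 rose and 2 fell in wild type. The DLK-1 cascade list (7 tested) held 1 gene that rose in each genotype, tbb-6, and 3 with the block. irg-3 was lower by a log2 of -1.58 ± 0.45 in the mutant (with the block adjusted p = 7e-05) and -1.64 ± 0.45 in wild type (with the block 3.77e-05).

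Among themselves, the effectors F08G5.6, C32H11.1 and K08D8.5 ran closest. Over the 12 libraries the Pearson correlation of log2 values was 0.964 for F08G5.6 with C32H11.1, 0.920 for F08G5.6 with K08D8.5 and 0.892 for C32H11.1 with K08D8.5. C17H12.8 correlated with these genes at 0.585 to 0.754 and clec-265 at 0.709 to 0.754. dod-24 ran opposite to C32H11.1 (-0.665) and clec-265 opposite to T24B8.5 (-0.718). These values describe 12 libraries that share doses, genotypes and replicate numbers and carry no test. Of 11154 genes with a mean of at least 50 normalised reads, those most like F08G5.6 were F55G11.2 (0.991), C29F3.7 (0.986) and ptr-22 (0.986), and those most like C32H11.1 were T16G1.6 (0.993), F56A4.2 (0.992) and clec-209 (0.992).

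The genes most like the remaining members were no members either. K08D8.5 was closest to F35E12.10 (0.960), clec-186 (0.959) and R05F9.6 (0.953). C17H12.8 was closest to F35E12.5 (0.913), F35E12.6 (0.880) and T27F2.4 (0.866). dod-24 was closest to F11A5.9 (0.941), dod-22 to dml-1 (0.942), T24B8.5 to arx-6 (0.932), clec-265 to F13E6.5 (0.928) and catp-3 to tps-1 (0.922). The replicate number was visible in the members too: replicate 3 was highest in all 4 groups for F08G5.6, C32H11.1, K08D8.5, dod-22 and dod-24, replicate 1 was highest in all 4 for catp-3, and replicate 1 was lowest in all 4 for T24B8.5.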

How the data were processed

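Per the labels' protocols, total RNA of whole worms was made into libraries with a TruSeq v2 kit, which does not mark strand, and read as single reads of 50 bp on 1 lane. The submitters' processing notes name Bowtie and DESeq2 without versions; the genome build and annotation they used were not given in the sources used here. Deposited values are a normalised signal, read counts divided by 1 size factor per library, as the values themselves show: 100% were whole reads within 0.01 read once the factor was removed. The table has 34873 transcript models; the model with the highest mean was kept for each of 30301 genes (catp-3 and dod-22 have 2 models). Coordinates come from Ensembl release 115 (WBcel235), in which 29778 genes were found by sequence name.

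All 12 libraries were fitted together in limma 3.58.1 (R 4.3.3, trend and robust) on log2(value + 1), over 15529 genes with at least 10 normalised reads in at least 3 libraries. Tests were two-sided with Benjamini-Hochberg adjustment over all of them and a threshold of 0.05, and folds on this scale understate the change of low genes. An adjusted p in the text is from this fit where no other is named. The block fit adds the replicate number. Libraries of the same number correlated in their deviations from group means in every pair (0.555 to 0.887), so the numbers were read as pairs. The median of different numbers was -0.523. Deviations within a group cancel out, so negative values there follow from the positive ones and are no separate evidence. No label states a pairing by replicate number. edgeR 4.0.16 and DESeq2 1.42.0 on the recovered reads were alternatives, with other pseudocounts, filters, scalings and left-out libraries. The fit was tested on simulated data. The 9 members were chosen, and the gene lists written, with earlier results of these data known. All 9 members, all genes of the PMK-1 cascade, up to 3 called genes of lowest p per other list and comparison, and the 3 genes most like each member were eligible to be named; 1 misidentified entry of the PMK-1 independent list was dropped and 1 of 11 entries of the other PMK-1 effectors was not found. Muscle, neuron, oocyte, epidermis, collagen, DLK-1 cascade and other dod lists were counted too. No sequences of the members were used here.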

Additional observations from a re-analysis of the deposited data

How the results depend on the processing

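The number of effectors called for fluvastatin was 2 in each genotype; with the replicate block it was 4 in the mutant and 7 in wild type, and DESeq2 gave 5 in wild type. Leaving out libraries gave 1 to 2 in the mutant and 0 to 4 in wild type, with 0 without replicate 1. For the mutant against wild type without fluvastatin the block gave 1 call, where 0 passed otherwise. Other settings tried (edgeR, pseudocounts of 0.5 and 8, no filter, a filter at 50, TMM scaling, only the groups compared, every transcript model) kept these counts within 1.5 times. Over all tested genes the calls for fluvastatin were 214 in the mutant and 282 in wild type. They were 980 and 1091 with the block, 362 and 437 in DESeq2, 103 and 166 with only the groups compared, 48 and 59 without replicate 1, and 43 and 47 without replicate 3. For the genotypes, DESeq2 called 7 genes with fluvastatin and 4 without it, and the block 42 and 15, no effector among them but C17H12.8 with the block and without fluvastatin. Over single effectors, comparisons and settings, 1067 values kept direction and call, 16 gained a call, 4 lost one and 29 reversed. The reversals were of values that passed in no fit. dod-22 for fluvastatin in wild type was at -0.12 in edgeR and -0.091 in DESeq2. With libraries left out it ran from -0.43 to 0.70 in wild type, from -0.71 to 0.00028 in the mutant and from -1.02 to 0.11 for the difference between genotypes. That difference ran from -0.27 to 1.04 for C32H11.1, from -0.12 to 0.90 for T24B8.5 and from -0.22 to 0.44 for dod-24. Mutant against wild type with fluvastatin ran from -0.074 to 0.23 for F08G5.6, from -0.26 to 0.13 for C32H11.1, from -0.30 to 0.19 for K08D8.5 and from -0.10 to 0.58 for catp-3. Without fluvastatin C32H11.1 ran from -1.11 to 0.20. The causes were not tested.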
